A study of Mus musculus with 2 samples.

Results

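Open chromatin of the mouse ovary was described at 10 genes of lipoprotein uptake and cholesterol transport: Scarb1, Vldlr, Lrp8, Abca1, Abcg1, Lipe, Soat1, Npc1, Npc2 and Stard3. These 10 of 21853 protein-coding genes were chosen by name. Their peaks were all peaks of the longer deposited list whose centre lay in the gene or nearer to a start site of the gene than to one of any other protein-coding gene. This gave 120 of 109169 peaks in replicate 1 and 108 of 114462 in replicate 2. DNase-seq, which marks DNA that DNase I can cut because it is not wrapped in nucleosomes, had been run on whole ovary tissue of female mice in 2 libraries. The mice were 36 days old and of B6CASTF1/J, the F1 hybrid of C57BL/6J and CAST, so every cell carried 1 genome copy of each strain. The labels give 1 group, with no treatment and no second genotype. They number the females of the 2 libraries differently but give both the same donor entry, which was read as the strain, so each library was taken as 1 animal. The value of a peak is the signal value that the authors deposited with it, on a scale that the sources used here do not state.

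Cells of the ovary make steroid hormones from cholesterol, which they take up from lipoproteins, store as esters and release again. Scarb1 encodes the receptor for high-density lipoprotein, and Vldlr and Lrp8 encode receptors of the low-density lipoprotein receptor family. Abca1 and Abcg1 encode transporters that move cholesterol out of the cell, Soat1 the enzyme that esterifies it, Lipe hormone-sensitive lipase, which splits esters, and Npc1, Npc2 and Stard3 proteins that move cholesterol out of or along late endosomes and lysosomes. Liver X receptors (LXR) are nuclear receptors that bind oxidised cholesterol and activate genes of cholesterol export. With a partner receptor they bind a DR4 element, a direct repeat of a half-site with 4 bases between the copies.

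The sequences below are the DR4 matches inside open sites of the 10 genes, since no other gene had as many as Abca1. A match was the half-site NGGTNA present at both ends of a 4-base gap, in 1 direction, on either strand. Half-sites are in capitals, each line reads 5′ to 3′ on the strand of the match, and distances are from the most upstream start site of the gene, positive downstream. The letters are those of the C57BL/6J reference genome (GRCm38, the same build as mm10). The CAST copy was not read.
Abca1 at -60 bp (chr4:53159935-53159974, plus strand): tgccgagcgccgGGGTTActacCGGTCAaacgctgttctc
Abca1 at +1015 bp (chr4:53158860-53158899, plus strand): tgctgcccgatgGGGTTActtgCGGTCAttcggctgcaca
Abca1 at +43897 bp (chr4:53115978-53116017, plus strand): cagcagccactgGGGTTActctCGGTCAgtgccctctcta
Abca1 at -58317 bp (chr4:53218192-53218231, minus strand): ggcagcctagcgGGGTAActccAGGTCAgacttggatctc
Abca1 at -104093 bp (chr4:53263968-53264007, minus strand): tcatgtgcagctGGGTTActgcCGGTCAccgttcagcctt
Abcg1 at +15818 bp (chr17:31073473-31073512, plus strand): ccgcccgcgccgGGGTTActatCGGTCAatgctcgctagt
Vldlr at -92644 bp (chr19:27124356-27124395, plus strand): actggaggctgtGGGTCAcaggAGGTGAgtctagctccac
In 4 of the 5 Abca1 matches and in the Abcg1 match the half-sites read GGGTTA and CGGTCA. In 6 of the 7 matches, the Vldlr match being the exception, the bases between the half-sites began with ct.

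In both libraries all 10 genes had a promoter peak, meaning one within 500 bp of a start site, and so did 65.6% of all protein-coding genes. In each library a promoter peak of all 10 also held a footprint, a short stretch protected from cutting. This held for 63.7% of all genes, and for 13919 of the 14332 genes with a promoter peak in both libraries. All 10 had at least 1 shared distal site, as did 64.9% of all genes. A shared site is a pair of overlapping peaks, 1 from each library, and a distal site is one whose centre lay over 1000 bp from every protein-coding start. With 65.6% of genes open, whether a full count of 10 sets these genes apart from the rest was not tested. Their promoter values, taken as the highest promoter peak, spread over most of the range of open promoters. The median over the 10 was 5.37, beside 5.17 over the 14332 open genes.

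**Figure D1:**
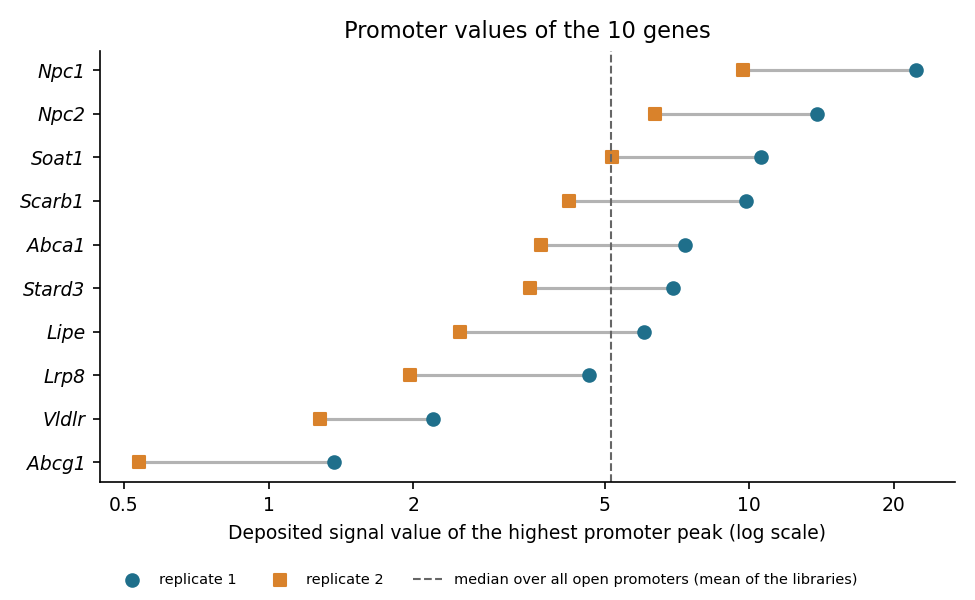
Signal value of the highest promoter peak of each gene in replicate 1 (circles) and replicate 2 (squares) on a log axis, with the median over all open promoters as a dashed line. Npc1 stood highest and Abcg1 lowest in both libraries, and replicate 2 lay below replicate 1 at every gene.

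In order of the mean over the libraries, the promoters ran from Npc1 (16.0), Npc2 (10.1), Soat1 (7.88) and Scarb1 (7.04) through Abca1 (5.51), Stard3 (5.23) and Lipe (4.27) to Lrp8 (3.31), Vldlr (1.74) and Abcg1 (0.952). The order was the same in each library. Replicate 2 was lower than replicate 1 at all 10 promoters, and the gap between the libraries at 1 gene was often larger than the gap between neighbours in the order. Thus replicate 1 of Stard3 (6.95) lay above replicate 2 of Soat1 (5.18). Npc1 in replicate 2 (9.70) and Abcg1 in replicate 1 (1.37) marked the ends: that Npc1 value lay above the replicate 1 values of 6 of the other promoters, and that Abcg1 value above the replicate 2 value of Vldlr (1.28).

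Scarb1 (ENSMUSG00000037936; chromosome 5, 125277087 to 125341094, minus strand) held the most open sites of the 10 genes. Its main promoter site, centred 3 bp from a start, had values of 9.87 in replicate 1 and 4.21 in replicate 2 (7.04 ± 4.00, SD, n = 2), which lay above 64.7% of open promoters. The 2 weaker promoter sites, at -0.532 kb (0.834 and 0.641) and +0.715 kb (0.990 and 0.537), held no footprint in either library. Footprints common to both libraries lay wholly inside the main site in 4 stretches, the longest of 40 bases from -86 to -47 bp. The sequence of that site is shown because its longest footprint holds the Sp/KLF consensus GGGCGG. Capitals mark bases footprinted in both libraries, and the untranslated bases were trimmed to 30. The trimming removed the stretch from 90 to 96 bp past the start, and the capitals at the 5′ end belong to a common footprint that crosses the edge of the site and was not counted.
Scarb1 promoter (chr5:125341065-125341220, minus strand): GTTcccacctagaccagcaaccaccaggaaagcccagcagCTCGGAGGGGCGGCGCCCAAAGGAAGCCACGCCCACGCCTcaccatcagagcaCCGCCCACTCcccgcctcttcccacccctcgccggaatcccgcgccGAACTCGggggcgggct
The Sp/KLF matches at -31 and -77 bp overlapped a footprint in both libraries, and the match at +23 bp in neither.

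Beyond its promoter, Scarb1 had 19 shared distal sites, more than 98.6% of protein-coding genes. Per 100 kb of the stretch assigned to it, this was 14.8 sites, a density above that of 97.1% of genes. Of the 19, 6 lay in introns and 13 were intergenic, and 9 of these lay past the 3′ end of the gene, from +67.2 to +98.8 kb. The highest of the 9 were at +69.4 kb (2.36 in replicate 1 and 2.85 in replicate 2), +72.8 kb (2.34 and 2.66) and +88.2 kb (2.64 and 2.22). Each stood above 89.4% or more of all shared distal sites. Within the gene, the highest was the intronic site at +23.6 kb (2.59 and 1.62). A nearest-start rule assigns a site to a gene by position and does not show which gene it serves.

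The site of Scarb1 at +1.85 kb, 763 bp from a start, held the single SREBP match (TCACNCCAC) in a shared site of the 10 genes. SREBP proteins activate genes of cholesterol synthesis and uptake when sterols are low. A footprint in both libraries overlapped the 3′ end of the match, which is in capitals here.
Scarb1 at +1853 bp (chr5:125339225-125339257, plus strand): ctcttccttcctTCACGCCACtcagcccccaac
The site itself had values of 1.52 and 1.30. Among all shared sites of the same window length (151 bp around the centre), 0.520% of promoter and 0.632% of distal sites held this consensus.

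Vldlr (ENSMUSG00000024924; chromosome 19, 27216484 to 27254231, plus strand) had a broad and low promoter region. Its 3 adjoining promoter sites had values of 2.20 and 1.28 at -0.059 kb, 1.19 and 0.720 at +0.261 kb, and 1.82 and 1.09 at +0.661 kb. The highest (1.74 ± 0.654, SD, n = 2) lay above 19.4% of open promoters. An intronic site at +1.99 kb, at 2.21 and 1.96, was level with the promoter in replicate 1 and exceeded it in replicate 2. The other 6 distal sites were intergenic and upstream, from -36.3 to -150 kb, and none exceeded 1.07 in either library. The site at -92.7 kb that holds the Vldlr DR4 match was the highest of these in replicate 1, at 1.07, and had 0.838 in replicate 2.

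Lrp8 (ENSMUSG00000028613; chromosome 4, 107802261 to 107876840, plus strand) had a promoter of 4.65 in replicate 1 and 1.97 in replicate 2 (3.31 ± 1.90, SD, n = 2), above 34.1% of open promoters. The noncoding genes Lrp8os1 and Lrp8os3 start within 1 kb of it, so the peak cannot be assigned to Lrp8 alone. All 5 shared distal sites lay in its introns. The highest were at +42.9 kb (2.63 and 2.34) and +1.53 kb (3.06 and 1.89), and the other 3 reached at most 0.742 in either library. At +42.9 kb, 66 bases were footprinted in both libraries, more than in the Lrp8 promoter site (37 bases).

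Abca1 (ENSMUSG00000015243; chromosome 4, 53030787 to 53159895, minus strand) had 2 sites of nearly equal value at its start. The promoter site at -0.106 kb had 7.34 in replicate 1 and 3.68 in replicate 2 (5.51 ± 2.59, SD, n = 2). The intronic site at +1.07 kb had 7.39 and 3.84 (5.61 ± 2.51, SD, n = 2), and its mean was the highest of the 62 distal sites of the 10 genes. The difference between these neighbours was smaller than the difference between the libraries at either. A weaker promoter site at +0.454 kb, at 1.07 and 0.805, held no footprint.

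Far upstream, Abca1 had 2 sites that came close to its promoter in value. The site at -36.4 kb had 5.76 in replicate 1 and 4.12 in replicate 2, so in replicate 2 it was higher than the promoter. The site at -104 kb had 6.27 and 3.30. Among all shared distal sites these stood above 97.8% and 97.6%. A pair at -57.9 kb (2.32 and 1.49) and -58.3 kb (2.97 and 2.24) came next, and the 5 intronic sites from +12.3 to +44.3 kb ranged from 0.596 to 1.67. In all, Abca1 had 16 distal sites, more than 97.6% of genes, though over a long stretch of 269 kb, so that 80.0% of genes had fewer per 100 kb.

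Both sites at the Abca1 start and the -104 kb site are shown whole, on the gene's strand, because each held a DR4 match and they differed in which bases were protected. Capitals mark bases footprinted in both libraries, so the DR4 match, here as its reverse complement except at -104 kb, is in lower case in all 3.
Abca1 promoter (chr4:53159881-53160120, minus strand): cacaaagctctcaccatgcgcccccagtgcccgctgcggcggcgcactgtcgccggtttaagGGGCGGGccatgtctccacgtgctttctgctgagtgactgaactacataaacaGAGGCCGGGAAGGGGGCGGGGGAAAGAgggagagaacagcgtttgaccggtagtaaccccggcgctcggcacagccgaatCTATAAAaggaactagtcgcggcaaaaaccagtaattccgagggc
Abca1 intronic site (chr4:53158721-53158920, minus strand): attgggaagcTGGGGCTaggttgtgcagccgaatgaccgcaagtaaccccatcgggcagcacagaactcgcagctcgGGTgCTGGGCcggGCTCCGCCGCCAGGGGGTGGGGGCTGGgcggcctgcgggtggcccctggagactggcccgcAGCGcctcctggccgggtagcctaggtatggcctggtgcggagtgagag
Abca1 far upstream site (chr4:53263901-53264120, minus strand): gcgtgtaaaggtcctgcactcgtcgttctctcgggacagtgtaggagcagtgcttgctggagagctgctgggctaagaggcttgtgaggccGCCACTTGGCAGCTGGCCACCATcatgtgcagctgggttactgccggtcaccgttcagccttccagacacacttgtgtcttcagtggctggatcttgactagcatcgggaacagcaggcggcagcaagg
In the promoter, footprints common to both libraries ran from -163 to -157 bp, from -110 to -84 bp and from -30 to -24 bp. Sp/KLF matches at -161 and -95 bp overlapped the first 2 of these, while the DR4 match at -60 bp and an E-box match (CACGTG) at -145 bp lay under none. In the intronic site the longest common footprint ran from 1065 to 1091 bp past the start and touched an Sp/KLF match at 1092 bp. The DR4 match there also lay under no footprint, and the one at -104 kb overlapped a footprint in replicate 1 alone.

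**Figure D2:**
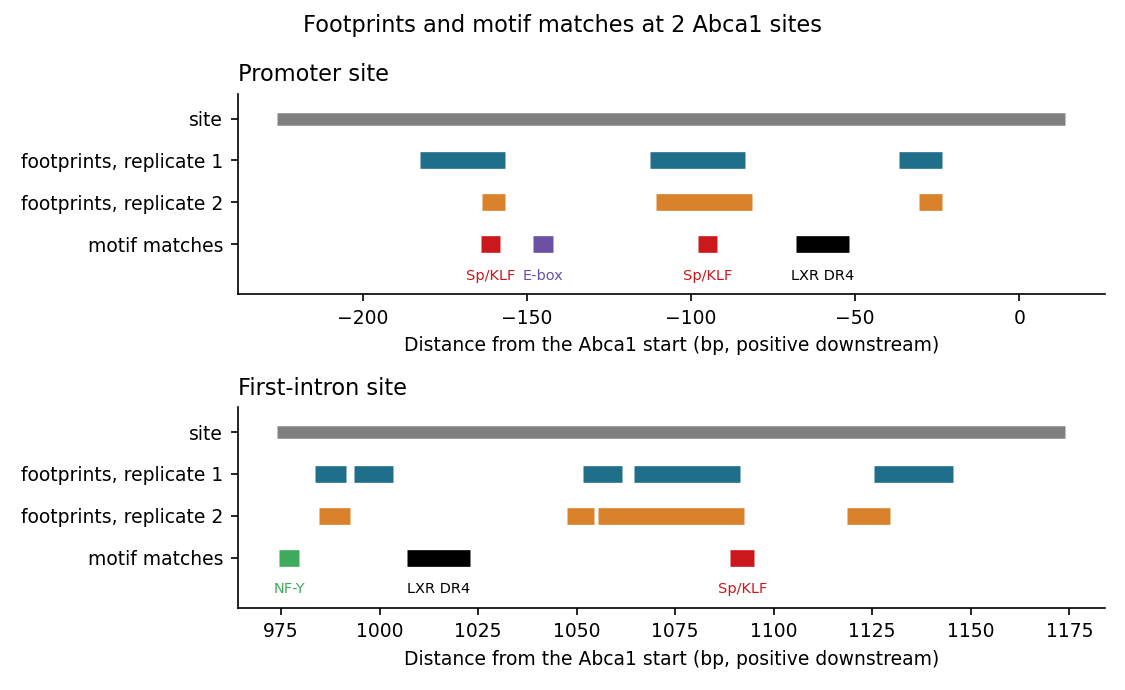
Extent of the open site, footprints of each library and consensus matches by distance from the Abca1 start in bp, for the promoter site (top) and the intronic site (bottom). In both sites the DR4 match lay between footprints and under none in either library.

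At Abca1 open sites with a DR4 match were more numerous than at any other gene. Its 18 shared sites included 5 with a match, the most of any of the 21853 genes. Bcor followed with 3 of 62 sites and Nabp1 with 3 of 9, then 8 genes had 2, 423 had 1 and the other genes had 0. All 5 Abca1 matches lay wholly inside a replicate 1 peak, but only 4 wholly inside a replicate 2 peak. The match at +43.9 kb began outside the narrow replicate 2 peak, and that site was in the shorter peak list of neither library. The genome stretch assigned to Abca1 was itself rich in such matches, with 18 in 269 kb or 6.68 per 100 kb, against 3.02 per 100 kb over the genome. Of the 18, 5 lay in shared sites (27.8%), against 0.555% of the 82223 matches in the genome. Over the 10 genes, 6 of the 62 distal sites held a match, beside 0.367% of 56951 shared distal sites, and 1 of the 18 promoter sites, beside 0.145% of 19997.

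Other distances between the same half-sites gave fewer matches at these genes. With a gap of 1 base, 2 of the 62 member distal sites held a match, beside 0.379% of all distal sites. With 2 bases it was 1 of the 62, beside 0.313%. At the other gaps of 0 to 8 bases apart from 4 it was 0. Over all distal sites the share at gaps other than 4 ranged from 0.284% to 0.576%. The exact form with GGGTTA and CGGTCA around the 4 bases was looked up after the matches had been seen. It occurred 37 times in the genome, of which 9 lay in shared sites, and 5 of these 9 belonged to Abca1 or Abcg1. A match describes letters in a window and does not show that a receptor was bound there.

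**Figure D3:**
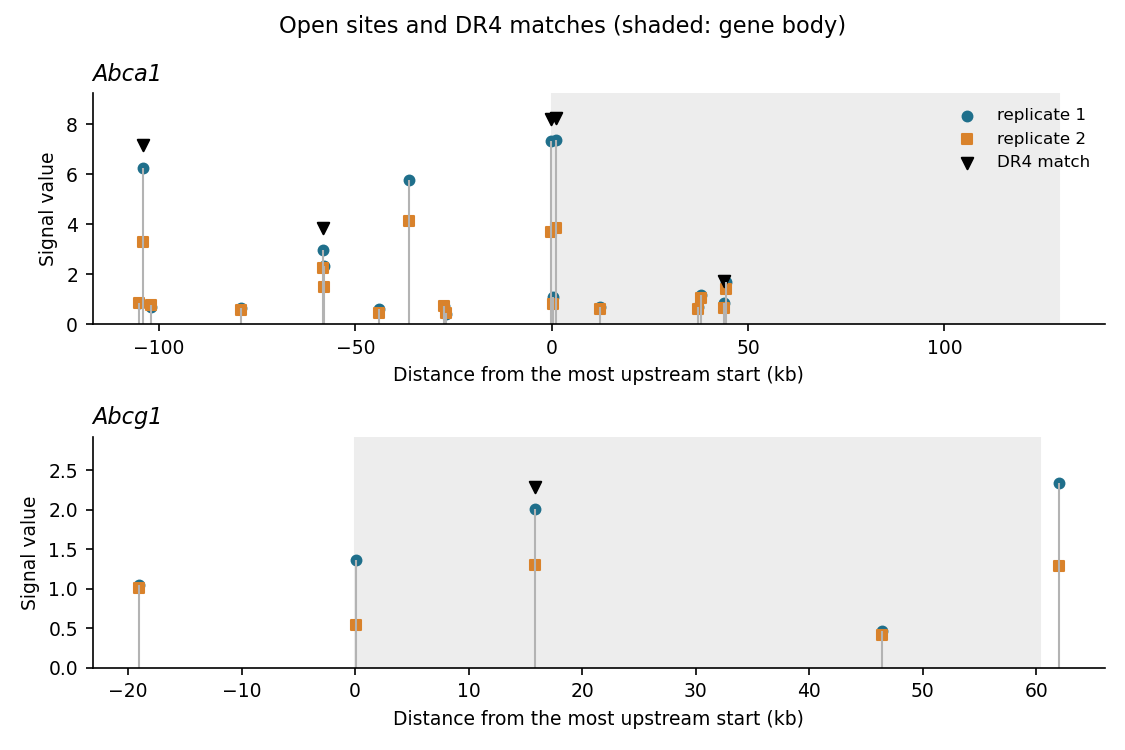
Signal value of each shared site of Abca1 (top) and Abcg1 (bottom) in replicate 1 (circles) and replicate 2 (squares) by distance from the start in kb, with triangles over sites that hold a DR4 match. At Abca1 4 of the 5 sites with a match were among its 5 highest, and at Abcg1 the site with a match lay in an intron above the promoter in value.

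Abcg1 (ENSMUSG00000024030; chromosome 17, 31057675 to 31117988, plus strand) had the lowest promoter of the 10, at 1.37 in replicate 1 and 0.537 in replicate 2 (0.952 ± 0.588, SD, n = 2), above 9.71% of open promoters. Its intronic site at +15.8 kb was higher in both libraries, at 2.01 and 1.30, as was an intergenic site at +62.0 kb, at 2.34 and 1.29. The +15.8 kb site is shown because its DR4 match was the only one of the 7 that overlapped a footprint in both libraries. Capitals mark the bases footprinted in both.
Abcg1 intronic site (chr17:31073361-31073660, plus strand): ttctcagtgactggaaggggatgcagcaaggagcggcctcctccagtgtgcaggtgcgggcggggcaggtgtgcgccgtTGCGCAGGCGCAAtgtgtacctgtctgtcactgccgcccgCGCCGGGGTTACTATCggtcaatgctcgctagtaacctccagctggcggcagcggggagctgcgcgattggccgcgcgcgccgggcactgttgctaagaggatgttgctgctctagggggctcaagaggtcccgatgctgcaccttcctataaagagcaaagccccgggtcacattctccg
The footprint common to both libraries ran for 16 bases and covered the 5′ half-site, the gap and the first base of the other half-site. Among all distal DR4 matches, 27.2% overlapped a footprint in both libraries. The remaining distal sites of Abcg1, at -19.1 kb (1.05 and 1.01) and in an exon at +46.4 kb (0.469 and 0.419), held no match.

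Lipe (ENSMUSG00000003123; chromosome 7, 25379527 to 25398710, minus strand) had its strongest site outside the promoter window. That site, at +3.02 kb in an exon annotated as untranslated and 688 bp from the nearest start, had 11.2 in replicate 1 and 5.73 in replicate 2 (8.46 ± 3.86, SD, n = 2). Its promoter site at +2.54 kb had 6.04 and 2.51, with 1 wide peak in replicate 2 where replicate 1 had 2 peaks, and a second promoter site at +8.53 kb, by another start, had 2.79 and 1.81. In each library the +3.02 kb site was higher than both. No peak lay at the most upstream Lipe start, so the promoter call rests on the starts inside the gene. The noncoding gene 4732471J01Rik overlaps Lipe and starts within 1 kb, and these peaks cannot be divided between the genes. In the promoter site at +2.54 kb, an E-box match at +2570 bp was overlapped in part by a footprint in both libraries.

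Soat1 (ENSMUSG00000026600; chromosome 1, 156424525 to 156474331, minus strand) had 1 promoter site, at 10.6 in replicate 1 and 5.18 in replicate 2 (7.88 ± 3.82, SD, n = 2), above 70.9% of open promoters. Its distal sites were weak: the highest mean was at -1.88 kb (1.28 and 0.818). The promoter sequence is shown for its long footprints, which covered 64 bases in both libraries (capitals), of 15, 28 and 21 bases each.
Soat1 promoter (chr1:156474302-156474500, minus strand): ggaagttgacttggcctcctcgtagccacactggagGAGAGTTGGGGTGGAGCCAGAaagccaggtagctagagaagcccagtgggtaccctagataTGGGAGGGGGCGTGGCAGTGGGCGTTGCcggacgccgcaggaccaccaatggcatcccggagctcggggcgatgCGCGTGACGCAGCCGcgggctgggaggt
The NF-Y match (CCAAT) at -25 bp lay under no footprint in either library.

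Stard3 (ENSMUSG00000018167; chromosome 11, 98358368 to 98381112, plus strand), which encodes a sterol-binding protein of the late endosome membrane, had 2 adjoining promoter sites. The first, at -0.067 kb, had 6.95 in replicate 1 and 3.50 in replicate 2 (5.23 ± 2.44, SD, n = 2), and the other, at +0.223 kb, 3.82 and 2.45. The gene 1700003D09Rik starts within 1 kb. In the first site, shown here, 2 stretches of 22 and 25 bases were footprinted in both libraries (capitals), and the latter spanned the start site.
Stard3 promoter (chr11:98358181-98358397, plus strand): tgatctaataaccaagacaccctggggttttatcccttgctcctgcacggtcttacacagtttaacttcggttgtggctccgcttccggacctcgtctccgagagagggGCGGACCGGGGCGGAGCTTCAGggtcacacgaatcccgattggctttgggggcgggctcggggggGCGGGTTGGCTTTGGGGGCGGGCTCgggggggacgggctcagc
The single distal site, in an intron at +19.5 kb, had 1.78 and 1.13 and lay nearer to the start of Tcap than to that of Stard3.

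Npc1 (ENSMUSG00000024413; chromosome 18, 12189692 to 12236400, minus strand), the membrane protein that exports cholesterol from lysosomes, had the highest promoter of the 10 genes. Its values were 22.2 in replicate 1 and 9.70 in replicate 2 (16.0 ± 8.85, SD, n = 2), above 98.5% of open promoters. A neighbouring site at -0.651 kb had 3.14 and 1.91. In the promoter site, 80 bases were footprinted in both libraries, the most of any promoter site of these genes. The 3 distal sites were at most 0.840 in replicate 1 and 1.05 in replicate 2, and 2 of them lay in introns of Ankrd29.

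Npc2 (ENSMUSG00000021242; chromosome 12, 84754562 to 84773152, minus strand), the soluble lysosomal protein that hands cholesterol to Npc1, came second. Its promoter had 13.8 in replicate 1 and 6.36 in replicate 2 (10.1 ± 5.27, SD, n = 2), above 84.1% of open promoters. Isca2 starts within 1 kb, so the peak cannot be assigned to Npc2 alone. In it 6 stretches with 78 bases in all were footprinted in both libraries, and one of them touched a match to the GATA consensus AGATAA at +107 bp. Its single distal site lay in the 3′ untranslated exon at +17.7 kb, at 1.30 and 1.01.

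**Figure D4:**
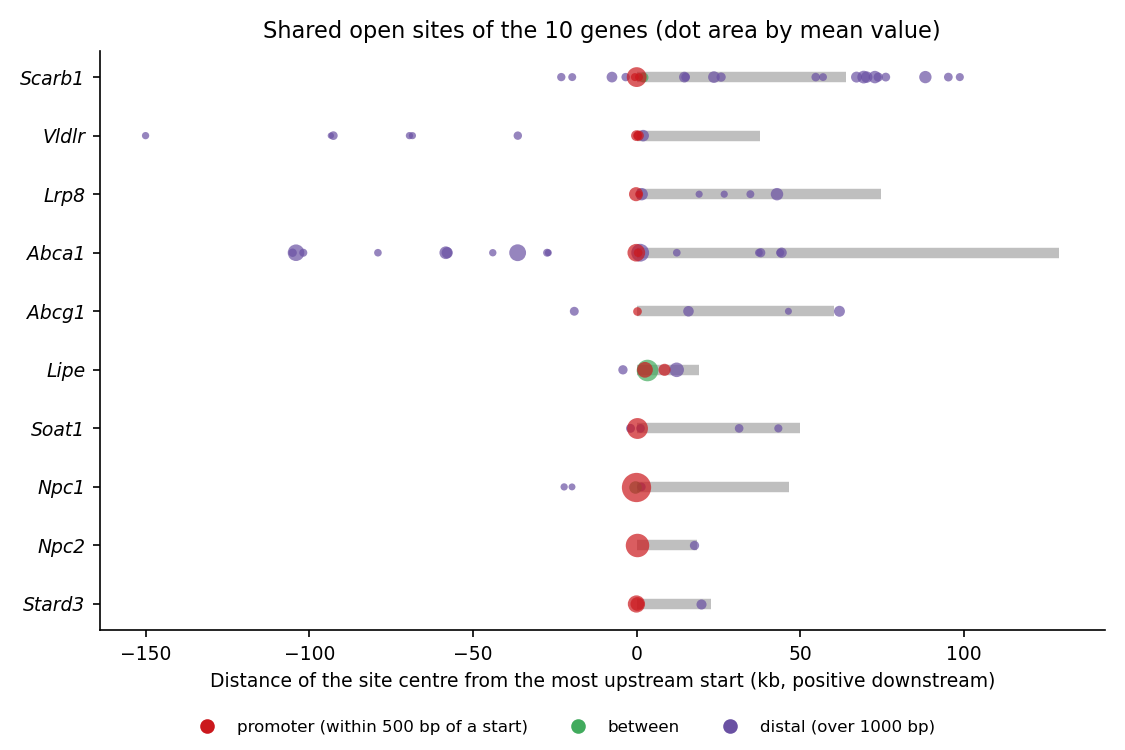
Position of the 83 shared sites of the 10 genes by distance from the most upstream start in kb, with gene bodies as grey bars, dot area by mean signal value and colour by kind of site. Scarb1 and Abca1 had the most distal sites, Scarb1 many of them past its 3′ end and Abca1 most of them upstream.

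Over the 10 genes there were 83 shared sites, of which 18 were promoter sites, 62 distal and 3 between these classes. Of the distal sites 26 lay in introns, 32 between genes and 4 in exons. A member had a median of 4 distal sites, beside 1 over all genes, and 4.17 per 100 kb, beside 1.93. The median distal value was 0.953, beside 0.809. Peaks over 300 bp wide numbered 12 of 120 in replicate 1 and 18 of 108 in replicate 2, and the share over all peaks was not counted. Of the 83 sites 20 had such a peak in at least 1 library. The 5 sites that wide in both libraries were Scarb1 at +67.2 kb, Vldlr at -150 kb, Abca1 at +0.454 kb, Lipe at +8.53 kb and Npc2 at +0.061 kb.

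Footprints inside these peaks numbered 275 in replicate 1 and 226 in replicate 2. A stretch footprinted in both libraries was present in 13 of the 18 promoter sites, beside 79.4% of all promoter sites, and in 43 of the 62 distal sites, beside 68.2%. The 5 promoter sites without one were low: their means ran from 0.467 (Lrp8 at +0.684 kb) to 0.956 (Vldlr at +0.261 kb). The Sp/KLF consensus was present in 13 of the 18 promoter windows, beside 48.3% of all promoter windows. Base composition was close to that of other sites, with a median GC content of 65.8% in promoter and 53.3% in distal sites, beside 64.6% and 53.0%.

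In the 151 bp window around the centre, 4 of the distal sites held a match to the CTCF consensus, CCANNAG followed after 2 bases by GGC. A further match, in the Abca1 site at -105 kb, lay outside that window and under no footprint in either library. CTCF is a DNA-binding protein that anchors chromatin loops. The 4 matches in the windows are shown in capitals because each of them overlapped a footprint in both libraries.
Scarb1 at +72819 bp (chr5:125268259-125268290, minus strand): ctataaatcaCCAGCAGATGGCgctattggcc
Scarb1 at +69381 bp (chr5:125271697-125271728, minus strand): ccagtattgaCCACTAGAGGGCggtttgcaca
Abcg1 at +61978 bp (chr17:31119637-31119668, minus strand): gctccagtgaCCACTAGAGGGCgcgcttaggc
Npc2 at +17645 bp (chr12:84755492-84755521, minus strand): ccaggcaaaCCACCAGGGGGCagcaatggg
Both Scarb1 matches and the Abcg1 match lay past the 3′ end of their gene, and the Npc2 match in its 3′ untranslated exon. Among all distal sites, 13.4% held a match in the 151 bp window, against 4 of the 62 here (6.45%). Of all such matches, 84.9% overlapped a footprint in both libraries.

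NR5A proteins, among them steroidogenic factor 1, drive genes of steroid synthesis, and their consensus CAAGGNCA was present in 6 of the 62 distal windows (9.68%), beside 10.9% of all. In 2 of these sites the match overlapped a footprint in both libraries, beside 19.3% of all distal matches. In the Scarb1 match the footprints of the libraries had 1 base in common. Both matches are shown in capitals.
Scarb1 at +54698 bp (chr5:125286380-125286411, plus strand): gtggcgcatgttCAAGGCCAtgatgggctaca
Abca1 at -27361 bp (chr4:53187240-53187271, plus strand): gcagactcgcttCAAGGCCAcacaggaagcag
The Scarb1 site had 0.925 and 0.910 and the Abca1 site 0.723 and 0.720, so both were weak and nearly equal in the libraries. Promoter windows of Lrp8 and Lipe held the consensus too, under no footprint, which is 2 of 18 beside 3.05% of all promoter windows.

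Replicate 2 was further below replicate 1 at the promoters of these genes than at their distal sites. The log2 ratio of replicate 2 over replicate 1 had a median of -1.16 over the 10 promoter values, beside -0.89 over all open promoters, a relative difference of -0.27 where the SD over all open promoters was 0.39. The lowest was Abcg1 (-1.35) and the highest Vldlr (-0.79). Distal sites had a median of -0.28, beside -0.30 over all, and 12 of the 62 were higher in replicate 2, beside 25.9% of all distal sites. Over all shared sites the ratio fell with value and with GC content, from a median of -0.01 in the class of lowest GC to -0.90 in that of highest. Whether GC content or value accounts for the ratios of these genes was not tested, and with 1 library per animal a difference between the animals and one between the libraries cannot be told apart.

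**Figure D5:**
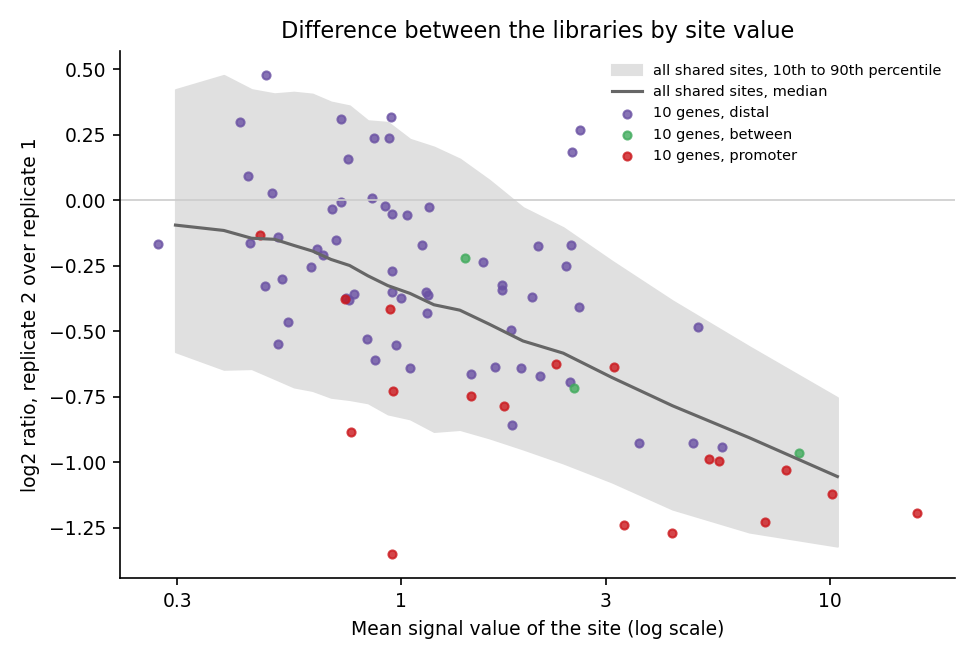
The log2 ratio of replicate 2 over replicate 1 against the mean signal value (log axis) for the 83 shared sites, with the median and the 10th to 90th percentile over all shared sites. Of the 83 sites 75 lay in the band, 4 above it, among them both Scarb1 sites with a CTCF match, and 4 below it, all at promoters.

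The sites above that band were Scarb1 at +69.4 kb (log2 ratio 0.27) and +72.8 kb (0.18), Vldlr at -68.5 kb (0.48) and Npc1 at +1.43 kb (0.32). All distal sites with a CTCF match had a median ratio of -0.33 and those without one -0.30, and the Scarb1 pair lay above both. Below the band lay promoter sites of Scarb1 (+0.715 kb), Lrp8, Abcg1 and Lipe (+2.54 kb).

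Most other genes of the same pathways were open in both libraries too, 32 of 37 on a list of 4 role groups, beside 65.6% of all genes, with a median value of 4.53. Of 12 uptake genes 10 were open, led by Mylip, which marks the low-density lipoprotein receptor for degradation (18.7 and 8.07), and Lrp1, a large receptor of the same family (7.95 and 4.63). Of 7 genes of efflux and its control 5 were open, led by the transporter gene Abca7 (13.3 and 6.62) and by Nr1h2, which encodes LXR beta (11.3 and 6.05). Of 7 genes of ester storage and release 6 were open, led by Abhd5, an activator of triglyceride lipase (13.3 and 5.97), and Pnpla2, that lipase (12.6 and 5.35). All 11 genes of transport inside the cell were open, led by Lamp1, a protein of the lysosome membrane (18.3 and 7.85), and Osbp, an oxysterol-binding protein (16.4 and 8.95). No promoter peak was present in either library at Pdzk1, Lcat and Apoa1, and Soat2, which encodes the other esterifying enzyme, had one in replicate 1 alone (0.866).

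The tissue label was checked against promoters of cell type markers. Granulosa markers were open in 5 of 6 cases (not Cyp19a1), and theca and luteal markers in 5 of 7, with no peak at Hsd3b1 and a peak at Insl3 in replicate 1 alone. With 65.6% of all genes open, these counts do little to identify the tissue. Mean values of the open granulosa markers ran from 0.561 (Fshr) to 4.66 (Foxl2). Those of the open theca and luteal markers ran from 0.773 (Ptgfr) to 3.13 (Nr5a1). None of 5 oocyte markers had a promoter peak in either library. Of markers of other cells with cholesterol or lipid stores, 2 of 6 adipocyte genes (Plin1 at 2.24 and Cidec at 0.633 in the mean) and 1 of 6 macrophage genes (Cd68 at 0.761) were open, while Adipoq and Adgre1 had no peak. Of 4 endothelial genes, Cdh5 was open, at 1.07. The values of these open adipocyte, macrophage and endothelial genes lay within the range of the open granulosa markers. Lep and Tek had a peak in replicate 1 alone and Fabp4 in replicate 2 alone, and they were not counted as open. The part of each cell type in the values above was not tested, and in whole tissue fewer cells with an open site and less cutting per cell cannot be told apart.

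Most peaks of the 10 genes were found in both libraries: 85 of 120 in replicate 1 (70.8%, beside 75.5% of all peaks) and 86 of 108 in replicate 2 (79.6%, beside 71.5%). Those found in 1 library were weaker in the median, at 0.638 and 0.471, beside 1.19 and 0.988 for the shared ones. The highest of them exceeded these shared medians, with 1.86 in replicate 1 (Abca1 at -36786 bp) and 1.33 in replicate 2 (Stard3 at +14239 bp). In replicate 1 Abca1 had the most peaks found in 1 library, 15, and in replicate 2 Abcg1, with 6 beside 5 at Abca1. All signal values were whole multiples of 1 step per library, and a median peak held 124 steps in replicate 1 and 99 in replicate 2. The weakest peaks of these genes held 44 and 38 steps.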

How the data were processed

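The 2 DNase-seq libraries of ovary, each read as 1 animal, were taken as the replicates that the labels number 1 and 2. Per the descriptions deposited with the files, peaks and footprints were called on mm10 for each library separately from its filtered alignments. The aligner, the callers and their thresholds are not stated in the sources used here. Peaks carry a signal value deposited by the authors, with no statement of its scaling. All of these values (100% in both libraries) were whole multiples of 1 step within 0.05 of a step, though whether a step is a read is not known. The authors also deposited a false discovery rate for each listed base, a q-value, and 76 of 120 and 63 of 108 peaks of these genes reached a q-value of 0.001. Footprints carry a deposited score of 0.01 in every line, so only their positions were used.

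From these files the longer peak list was used, with GENCODE M21 models of protein-coding genes on GRCm38. Shared sites were one-to-one pairs of peaks with an overlap of at least 1 bp, and their coordinates span both peaks. Promoter values are the highest peak within 500 bp of a start. The relative ratio is the log2 ratio of the libraries less its median over all open promoters. Motifs were searched on both strands over the whole width of the sites of the 10 genes. The shares of promoter and distal sites with a match were counted in windows of 151 bp around site centres. DR4 matches per gene were counted over whole sites. A footprint was counted inside a peak when it lay wholly in it, and common stretches are the bases under a footprint of each library. Sequences were read from the RefSeq copy of GRCm38. With 1 group of 2 animals there was no contrast and no test, and values are mean ± SD.

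The genes named were all 10 members and, from each pathway group, the 2 of highest mean promoter value and those with no promoter peak. The sites named were each member's promoter sites and highest distal site, the 5 highest distal sites, and peaks over 300 bp wide; other sites, and Bcor and Nabp1, were chosen after their values were seen. Some items that this rule names are not reported here. Members, lists and motifs were chosen with earlier results of these data known. The overlap and assignment steps were tested on simulated data. Alternatives covered the promoter and distal windows, the peak list, the overlap, the assignment rule, the scaling and each library alone. Python 3.11.15, numpy 2.4.6, pandas 2.3.3, pysam 0.24.0 and matplotlib 3.10.9 were used.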

Additional observations from a re-analysis of the deposited data

How the results depend on the processing

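The limits of these values are the 2 libraries, the unknown scale of the signal values, and the assignment of distal sites by position. The count of 10 members with a promoter peak held with a window of 1000 bp and was 9 with the most upstream start alone (Lipe was lost), with the shorter peak list and with peaks above the median value (Abcg1 was lost in both). With each library alone it was 10 and 10. The other pathway genes, 32 in the main count, ranged from 30 to 33 over all settings. Footprints were present in 10 members, and in 9 with the shorter list.

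The 62 shared distal sites became 55 beyond 2000 bp, 50 with an overlap of at least 0.5 of both peaks, 59 with the nearest start alone and 29 with the shorter peak list, which holds fewer peaks. With replicate 1 alone there were 93, and with replicate 2 alone 84. The shorter list left no distal site at Soat1 and Npc1, and 8 each at Scarb1 and Abca1. The relative promoter ratio of -0.27 was -0.17 with summed promoter peaks, -0.15 within the same value class and -0.21 with the shorter list. Against all shared distal sites it was -0.86, since those had a higher ratio than promoters. Under the DR4 alternatives, chosen after seeing the data, the 6 distal sites with a match remained 6 in number over the whole site width. There were 5 with the shorter list, 6 with replicate 1 alone and 7 with replicate 2 alone. No paired analysis was possible because there is 1 group.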
